A study of Mus musculus with 8 samples.

Results

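Spermatogonia are the germ cells at the base of the seminiferous tubule from which sperm are made. The genes described here are 10 that mark them: Gfra1, Id4, Etv5, Zbtb16, Sall4 and Uchl1, which are known for undifferentiated spermatogonia and the stem cells among them, and Kit, Stra8, Sohlh1 and Sohlh2, which are known for spermatogonia that differentiate. They were taken by name from a table of 55414 mouse genes, with earlier results of these data known, and every one of the 10 was found by its Ensembl identifier. Their RNA was measured by sequencing in testes of 4 valine samples (VA in the column headings; valine is an amino acid with a branched side chain) and 4 control samples. The series asks how valine acts on the testis of male mice, and its title names apoptosis, autophagy and nucleic acid methylation. The sources used here do not give the strain or age of the mice, how much valine they received, by which route or for how long. They also do not say that the samples came from different animals, so the p-values reflect sample-to-sample spread that may be technical. Whole testis was sampled, so fewer cells of a type and less RNA per cell cannot be told apart.

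Spermatogonial stem cells are kept by a glial cell line-derived neurotrophic factor signal from somatic cells, received by GFRA1 together with RET, and by transcription factors such as ID4, ETV5, ZBTB16 and SALL4. Retinoic acid then moves undifferentiated spermatogonia into differentiation, when KIT, the receptor for KIT ligand, appears, and later into meiosis, for which STRA8 is needed. SOHLH1 and SOHLH2 are germ cell transcription factors of the basic helix-loop-helix class that are required for differentiation. Spermatogonia are a small share of the cells of an adult testis, and some of these genes are also used elsewhere in it. Kit is made by Leydig cells, which lie between the tubules and produce testosterone, and a truncated Kit transcript is made in spermatids. Etv5 is also made by Sertoli cells, the somatic support of the germ cells within the tubules.

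The unit is FPKM, in which fragments are scaled by gene length and by a size factor of the library. The deposited values turned out to be whole counts divided by the gene's exon length, which let the counts behind each value be recovered. Of 1000 genes sampled with a mean between 1 and 20 FPKM, 97.7% had values in whole-number steps in all 8 samples, against 0.8% after noise of 2% was added. The recovered counts summed to 17379451 to 19820664 in the valine libraries and 16741658 to 19405605 in the control libraries. For the 10 genes here the counts lay between 29 and 770 in a library, and the intervals given for them are exact Poisson intervals (95%) that cover counting error only. The label of testis fitted its markers, with the spermatid gene Prm1 at 12580 to 16890 FPKM in valine testes and 10020 to 10723.5 FPKM in control testes, and the Sertoli gene Sox9 at 8.48 to 12.9 FPKM in valine testes and 7.88 to 10.1 FPKM in control testes. Sox9 was chosen after its values were seen.

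Of the 10 genes, Kit and Zbtb16 fell with valine, none rose, and 8 did not pass the test. Kit was at 3.60 ± 0.402 FPKM in valine testes and 7.96 ± 1.71 FPKM in control testes, and Zbtb16 was at 1.496 ± 0.132 FPKM in valine testes and 3.67 ± 0.943 FPKM in control testes (mean ± SD, n = 4 each). The fallen pair came from opposite sides of the list, Zbtb16 from the undifferentiated and Kit from the differentiating genes. Genes were called at a limma adjusted p below 0.05 over 22077 genes whose mean reached 1 FPKM, a filter that all 10 passed. Against 2 lower and 0 higher among the 10, 4.41% of all tested genes were called lower and 4.32% higher (8.73% in either direction). The groups did not overlap for 4 of the 10, namely Kit and Zbtb16 downward and Gfra1 and Uchl1 upward, where 18.4% of all tested genes had groups that did not overlap (9.39% downward and 8.99% upward). The split of calls over all genes differed between settings. As deposited 49.5% of the called genes were higher. With another scaling 15.2% were higher for equal totals, 27.9% for quantile normalisation and 48.2% for equal medians. With the scaling kept 37.3% were higher without the mean-variance trend and 60.3% with a filter at a mean of 5 FPKM. With voom on the recovered counts 34.0% were higher when libraries were scaled by the totals of these counts. When they were scaled by median ratios to each gene's geometric mean, 38.9% were higher.

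**Figure D1:**
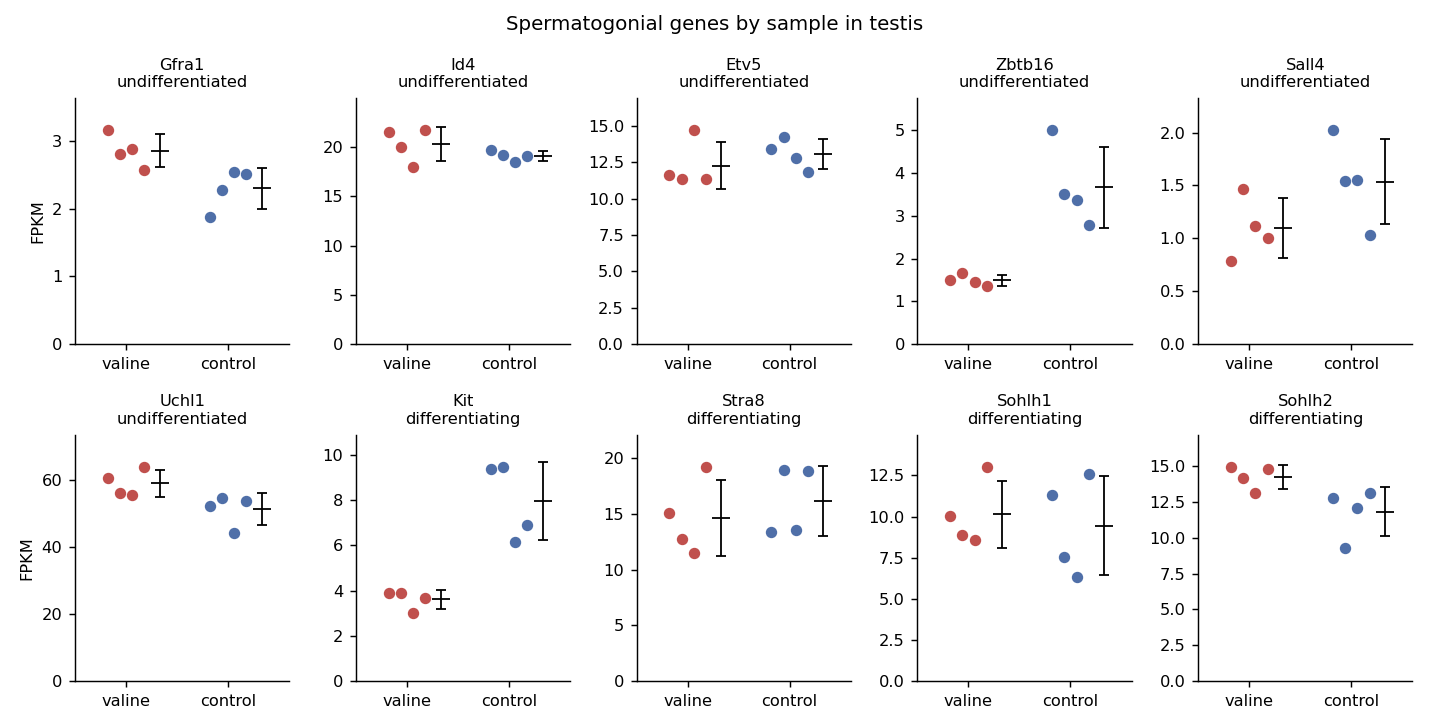
FPKM (y axis, from 0) of the 10 spermatogonial genes in each valine sample (red, left) and control sample (blue, right), with the mean and SD of each group as the bar beside the points (n = 4 each). The valine points of Kit and Zbtb16 lie wholly below the control points, those of Gfra1 and Uchl1 wholly above, and the other 6 genes overlap.

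Among the undifferentiated genes, Gfra1 codes for the surface receptor for glial cell line-derived neurotrophic factor. Gfra1 had 3.16, 2.81, 2.88 and 2.57 FPKM in valine replicates 1 to 4. In control replicates 1 to 4 it had 1.88, 2.27, 2.54 and 2.50 FPKM. Every valine sample was higher than every control sample, though the closest ones, valine replicate 4 and control replicate 3, were nearly equal. These values rest on 104 to 120 counts in the valine libraries and 79 to 103 in the control libraries, and the spread within the valine group was 0.896 times the spread that counting alone would give. The difference was 0.23 on the log2(FPKM + 1) scale (95% interval -0.03 to 0.48, limma adjusted p = 0.246), and the two-sided exact permutation test over the 70 arrangements of the samples gave p = 0.0286, the smallest it can give. Gfra1 is not called as changed.

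Zbtb16, which codes for the zinc-finger repressor PLZF that keeps stem cells undifferentiated, had 1.51, 1.67, 1.44 and 1.36 FPKM in valine replicates 1 to 4, against 5.01, 3.51, 3.36 and 2.80 FPKM in control replicates 1 to 4. The groups stood well apart, and control replicate 1 was the highest of the 8. Its counts were 53 to 63 in the valine libraries and 111 to 203 in the control libraries, and the highest Poisson bound among the valine samples (2.14 FPKM) lay below the lowest among the control samples (2.30 FPKM). The change was -0.89 ± 0.151 SE on the log2(FPKM + 1) scale (limma adjusted p = 0.0123), and the mean in valine testes was 0.407 of that in control testes. Without control replicate 1 the change was -0.76 (limma adjusted p = 0.0259). The spread within the control group was 3.03 times the counting error, while within the valine group it was 0.663 times.

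Sall4, a zinc-finger factor of stem and progenitor spermatogonia, was the least abundant of the 10. It had 0.789, 1.47, 1.12 and 1.00 FPKM in valine replicates 1 to 4, against 2.02, 1.54, 1.55 and 1.03 FPKM in control replicates 1 to 4. The groups overlapped, with valine replicate 2 above control replicate 4. The counts were 29 to 58 in the valine libraries and 43 to 86 in the control libraries, and the difference of -0.27 on the log2(FPKM + 1) scale (95% interval -0.66 to 0.11) did not pass (limma adjusted p = 0.352).

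Id4, whose protein binds basic helix-loop-helix factors and keeps them off DNA, had 21.5, 20.05, 17.96 and 21.7 FPKM in valine replicates 1 to 4, against 19.7, 19.2, 18.5 and 19.1 FPKM in control replicates 1 to 4. It was the steadiest of the 10 in the control group, with a spread 0.612 times the counting error of its 480 to 582 counts. The difference of 0.08 on the log2(FPKM + 1) scale (95% interval -0.08 to 0.24, limma adjusted p = 0.533) changed sign to -0.033 with equal totals. Etv5 codes for an ETS transcription factor that responds to the glial cell line-derived neurotrophic factor signal. Etv5 had 11.6, 11.4, 14.7 and 11.4 FPKM in valine replicates 1 to 4. In control replicates 1 to 4 it had 13.4, 14.2, 12.8 and 11.8 FPKM. Valine replicate 3 stood above all control samples and the other valine samples stood below them all. The difference of -0.09 (95% interval -0.32 to 0.14) did not pass (limma adjusted p = 0.621).

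Uchl1, a ubiquitin hydrolase used as a protein marker of spermatogonia, was the most abundant of the 10. It had 60.5, 56.0, 55.5 and 63.9 FPKM in valine replicates 1 to 4, against 52.2, 54.6, 44.2 and 53.8 FPKM in control replicates 1 to 4. Every valine sample was above every control sample, by a narrow margin between valine replicate 3 and control replicate 2. The difference was 0.20 on the log2(FPKM + 1) scale (95% interval 0.02 to 0.39) and did not pass over all genes (limma adjusted p = 0.157; exact permutation p = 0.0286, the smallest possible). With equal totals it was 0.09 (limma adjusted p = 0.512).

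The 250 bases before the transcription start of the 4 differentiating genes are shown because Kit fell while the other 3 did not pass the test. The sequences are from RefSeq (GRCm38.p6, an older assembly than the GRCm39 named in the submitters' processing notes), each 5′ to 3′ on the strand of the gene. Capitals mark CANNTG, the E-box read by basic helix-loop-helix factors, and AGGTCA, a motif read by retinoid receptors, searched on both strands.
Kit, chr5:75574737-75574986, plus strand: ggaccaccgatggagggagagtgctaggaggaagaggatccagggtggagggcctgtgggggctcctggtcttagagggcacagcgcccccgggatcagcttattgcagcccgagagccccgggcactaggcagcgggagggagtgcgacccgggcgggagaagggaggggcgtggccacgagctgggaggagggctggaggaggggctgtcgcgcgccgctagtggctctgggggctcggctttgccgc
Stra8, chr6:34920698-34920947, plus strand: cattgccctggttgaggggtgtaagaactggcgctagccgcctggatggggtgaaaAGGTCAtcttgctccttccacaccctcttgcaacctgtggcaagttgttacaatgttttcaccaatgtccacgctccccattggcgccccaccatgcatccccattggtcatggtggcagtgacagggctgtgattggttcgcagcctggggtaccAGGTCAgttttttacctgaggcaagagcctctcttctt
Sohlh1, chr2:25847249-25847498, minus strand: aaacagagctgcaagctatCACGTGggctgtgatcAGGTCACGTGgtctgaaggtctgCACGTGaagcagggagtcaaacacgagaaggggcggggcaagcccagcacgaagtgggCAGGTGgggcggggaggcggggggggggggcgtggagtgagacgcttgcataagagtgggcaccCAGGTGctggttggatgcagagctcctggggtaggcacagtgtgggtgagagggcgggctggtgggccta
Sohlh2, chr3:55181794-55182043, plus strand: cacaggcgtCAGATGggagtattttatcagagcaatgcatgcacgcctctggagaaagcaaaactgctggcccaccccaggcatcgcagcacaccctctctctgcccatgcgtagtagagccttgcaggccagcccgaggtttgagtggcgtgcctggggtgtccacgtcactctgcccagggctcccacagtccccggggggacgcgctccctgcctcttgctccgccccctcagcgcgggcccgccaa
Kit holds neither motif in this window, Stra8 holds AGGTCA 2 times and no CANNTG, Sohlh1 holds CANNTG 5 times and AGGTCA 1 time (sharing 2 bases with a CANNTG), and Sohlh2 holds CANNTG 1 time. Of 32851 mouse promoter windows of the same length, 66.2% hold CANNTG and 14.02% hold AGGTCA. A match is a description of letters only. Promoters were matched for 8 of the 10 genes, and not for Zbtb16, which also fell, or Sall4.

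Kit, the receptor tyrosine kinase that differentiating spermatogonia acquire, had 3.87, 3.88, 3.02 and 3.65 FPKM in valine replicates 1 to 4, against 9.36, 9.48, 6.13 and 6.89 FPKM in control replicates 1 to 4. The highest valine sample was well below the lowest control sample, and within the control group replicates 1 and 2 were higher than replicates 3 and 4. The counts were 205 to 247 in the valine libraries and 369 to 640 in the control libraries, and the spread within the control group was 4.82 times the counting error, the widest of the 10 genes. The change was -0.95 ± 0.147 SE on the log2(FPKM + 1) scale (limma adjusted p = 0.00933; exact permutation p = 0.0286, the smallest possible), and the mean in valine testes was 0.453 of that in control testes. Gene-level values do not separate the full-length from the truncated Kit transcript.

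Stra8, which germ cells need to enter meiosis and which retinoic acid induces, had 15.1, 12.7, 11.4 and 19.2 FPKM in valine replicates 1 to 4, against 13.4, 18.9, 13.5 and 18.8 FPKM in control replicates 1 to 4. The control range lay inside the valine range, with valine replicate 4 the highest and valine replicate 3 the lowest of the 8. The difference was -0.14 on the log2(FPKM + 1) scale, with a 95% interval of -0.55 to 0.26 (limma adjusted p = 0.665).

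Sohlh1, a basic helix-loop-helix factor of early differentiation, had 10.04, 8.91, 8.56 and 13.0 FPKM in valine replicates 1 to 4, against 11.3, 7.55, 6.32 and 12.6 FPKM in control replicates 1 to 4. Control replicates 2 and 3 were the lowest and control replicate 4 was near the top, so the difference of 0.12 on the log2(FPKM + 1) scale (95% interval -0.37 to 0.61, limma adjusted p = 0.773) was small against the spread, which was 2.98 times the counting error in the control group. Without control replicate 3 the difference was -0.035. Its partner Sohlh2 had 15.0, 14.2, 13.1 and 14.8 FPKM in valine replicates 1 to 4, against 12.8, 9.31, 12.1 and 13.1 FPKM in control replicates 1 to 4. The groups met at 13.1 FPKM, where valine replicate 3 and control replicate 4 were level, and the difference of 0.26 (95% interval 0.01 to 0.51) did not pass over all genes (limma adjusted p = 0.174).

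**Figure D2:**
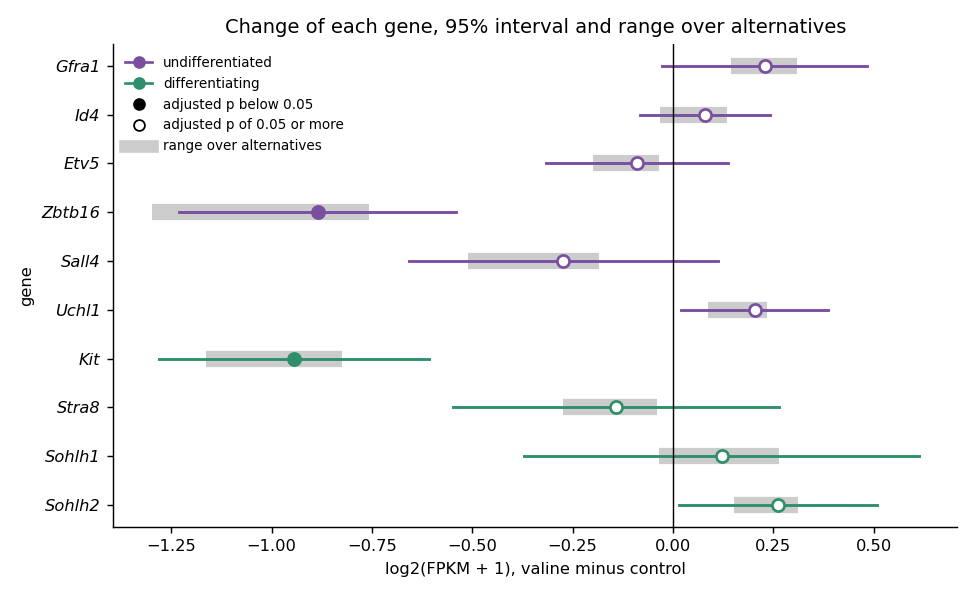
Change of each gene on the log2(FPKM + 1) scale, valine minus control (x axis), with its 95% limma interval (line), filled where the adjusted p was below 0.05. Grey bars give the range over the alternative settings and left-out samples. Kit and Zbtb16 stay between -1.30 and -0.76 throughout, while the other 8 genes lie between -0.51 and 0.31.

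The undifferentiated and the differentiating genes were also described as groups. The undifferentiated genes had 1 call and 3 negative changes among 6, with a median change of -0.005 on the log2(FPKM + 1) scale. The differentiating genes had 1 call and 2 negative changes among 4, with a median of -0.01. The median over all tested genes was 0.02. The mean log2(FPKM + 1) of all 6 undifferentiated genes was 3.04 to 3.08 in valine samples and 3.09 to 3.28 in control samples, so every valine sample was below every control sample. Without Zbtb16 it was 3.40 to 3.42 in valine samples and 3.32 to 3.42 in control samples, and the groups overlapped. The mean of all 4 differentiating genes was 3.44, 3.32, 3.18 and 3.59 in valine replicates 1 to 4. In control replicates 1 to 4 it was 3.66, 3.54, 3.32 and 3.72, so the groups overlapped. Without Kit it was 3.82, 3.67, 3.57 and 4.04 in valine replicates 1 to 4. The control values without Kit were 3.75, 3.59, 3.48 and 3.97. With and without Kit, the replicate numbers ranked alike in both groups. For the undifferentiated genes they did not. No test was run on these group values, because the genes were chosen with earlier results of these data known.

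The order of the 10 genes by FPKM was much the same in both groups except at the low end. Uchl1 stood alone at the top in both. Id4, Stra8, Sohlh2, Etv5 and Sohlh1 followed in valine testes, in a chain in which each overlapped its neighbour in range, and the same genes formed a like chain in control testes, there joined by Kit. Kit, at 3.02 to 3.88 FPKM, stood below that chain in valine testes and overlapped Gfra1. Gfra1 was above Zbtb16 in every valine sample (2.57 to 3.16 against 1.36 to 1.67 FPKM), and below it in every control sample (1.88 to 2.54 against 2.80 to 5.01 FPKM).

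Leydig cell genes moved with Kit. All 11 of the Leydig marker genes fell, with a median change of -1.73 on the log2(FPKM + 1) scale, and their summed level was 525.3 to 822.3 FPKM in valine testes and 1682 to 2362 FPKM in control testes. None of them was at 0 in all samples. Cyp17a1, which makes androgen precursors, was at 95.4 ± 17.7 FPKM in valine testes and 415.7 ± 108.4 FPKM in control testes (SD, n = 4 each; limma adjusted p = 0.00299). Within the control group the Leydig sum was highest in replicate 2, where Kit was also highest, and lowest in replicate 4, while Kit was lowest in replicate 3. The part of Leydig cells in the fall of Kit was not tested.

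Mast cells, which also carry KIT, were checked by 8 marker genes. Cma1 and Ms4a2 were at 0 in all 8 samples, 6 of the 8 were below the filter, and neither Cpa3 (limma adjusted p = 0.645) nor Hdc (limma adjusted p = 0.418) passed the test. The mast cell sum was 12.1 to 14.7 FPKM in valine testes and 10.3 to 12.8 FPKM in control testes, most of it from Hdc.

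Markers of other cells outside the tubules were also lower. Of 7 stroma genes 4 fell (median -0.98), with a sum of 17.2 to 21.9 FPKM in valine testes and 38.6 to 69.0 FPKM in control testes. With the replicate number as a block 2 of the stroma genes were called, as Col1a2 and Col3a1 were lost, and Col3a1 lost its call under 11 of 21 alternatives. The stroma sum was highest in control replicate 1, the sample with the most Zbtb16 and Sall4. The peritubular myoid, endothelial and adipocyte sums were also highest in that sample, and the macrophage sum was highest in control replicate 2. Of 6 macrophage genes 3 fell (median -0.89), with a sum of 34.6 to 42.7 FPKM in valine testes and 70.8 to 90.6 FPKM in control testes. Of 4 endothelial genes tested 3 fell (median -0.78), of which Esam lost its call with the block, and of 5 peritubular myoid genes Acta2 fell (median -0.49). Of 5 adipocyte genes tested Plin1 fell (median -0.60), a call lost under 9 of 20 alternatives. The adipocyte sums overlapped, at 33.9 to 41.6 FPKM in valine testes and 31.7 to 78.9 FPKM in control testes, where only control replicate 1 was above 40.4 FPKM. Without control replicate 1 no adipocyte gene was called and the median was -0.11. None of these lists had a gene at 0 in all samples. Their part in the fall of Kit and Zbtb16 was not tested.

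Inside the tubules the picture was different. None of 12 Sertoli genes passed (median 0.05), and their sum was 891.8 to 980.3 FPKM in valine testes and 895.8 to 1005 FPKM in control testes. Of 8 spermatocyte genes Ccna1, a cyclin of meiosis, rose (median 0.16), a call lost under 13 alternatives. None of 6 round spermatid genes passed (median 0.12), and 5 of 6 elongating spermatid genes rose (median 0.45). Of these 5, none passed with quantile normalisation, 1 after removal of the trend of changes with exon length, and 2 without a filter. With equal totals, which moved the median of all genes by -0.10, the Sertoli median was -0.06, the round spermatid median -0.0004, and 1 Sertoli and 1 spermatocyte gene were lower.

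**Figure D3:**
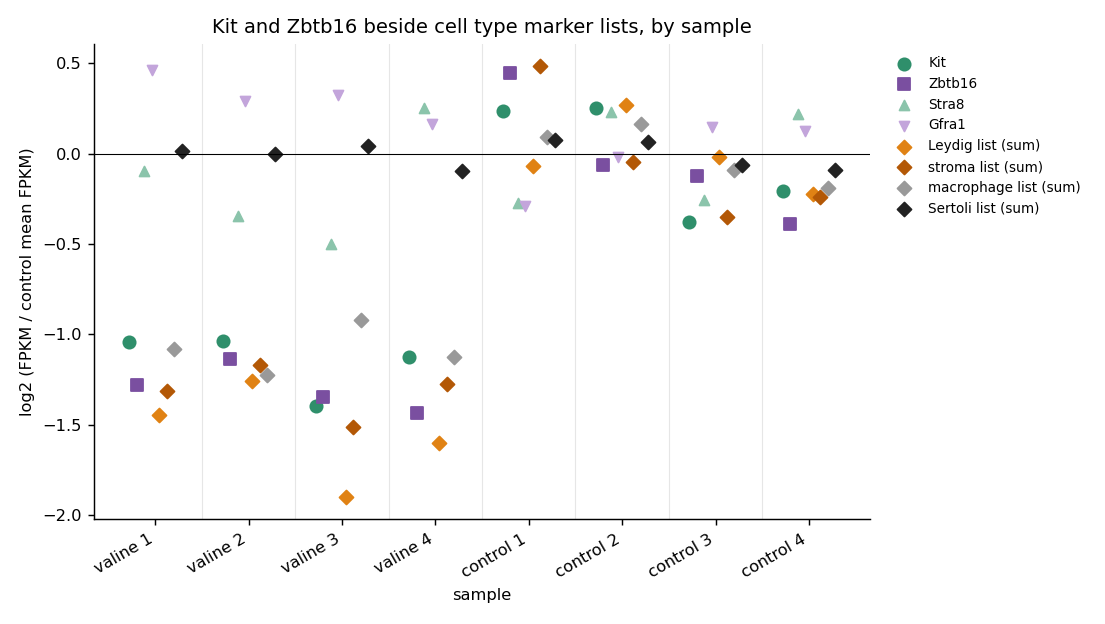
Level of Kit, Zbtb16, Stra8, Gfra1 and the summed FPKM of 4 marker lists in each sample, as log2 of the ratio to the mean of the control samples (y axis), valine samples on the left. Kit, Zbtb16 and the Leydig, stroma and macrophage sums are all low in every valine sample, while the Sertoli sum, at 891.8 to 980.3 FPKM in valine testes and 895.8 to 1005 FPKM in control testes, is not.

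The changes of all genes moved with exon length, so the tested genes were split by length into 5 bins of equal size. Kit, with 8911 bp of exon, was in the bin of the longest genes, where 8.85% were lower and 1.18% higher and the median change was -0.10 on the log2(FPKM + 1) scale. Its own change of -0.95 lay just inside the lowest 1% of that bin, which lay below -0.93. Zbtb16 (5283 bp) was in the next bin together with Sall4, Gfra1, Etv5 and Id4. In that bin 6.15% were lower and 2.37% higher, the median was -0.03 and the lowest 1% lay below -1.11. Uchl1, Stra8 and Sohlh1 were in a bin of shorter genes, of 808 to 1879 bp, with a median of 0.14, and Sohlh2 in a bin with a median of 0.05. The change of Uchl1 (0.20) was thus near that of genes of its length, and that of Stra8 (-0.14) was below it. After removal of the length trend Kit changed by -0.82 (limma adjusted p = 0.0158) and Zbtb16 by -0.81 (limma adjusted p = 0.0169).

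**Figure D4:**
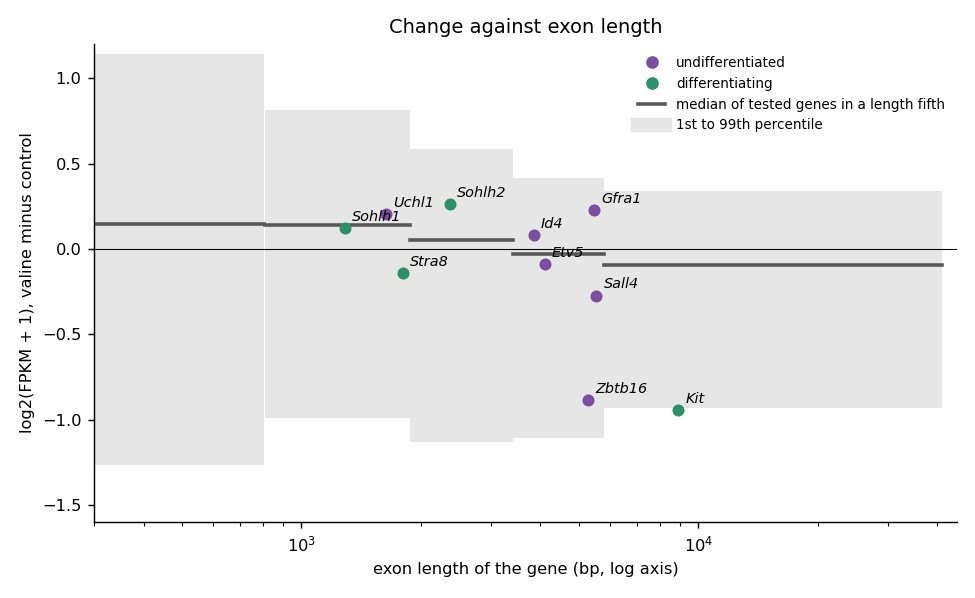
Change of each gene on the log2(FPKM + 1) scale, valine minus control (y axis), against its exon length in bp (x axis, log scale), with the median (dark lines) and the 1st to 99th percentile (grey) of the tested genes in each of 5 bins by length. Kit lies just under the grey area of the bin of longest genes, Zbtb16 inside the lower part of its own, and the other 8 genes inside theirs.

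Other genes known for undifferentiated spermatogonia mostly did not pass. Of 25 listed, 12 were below the filter, among them Nanos2, Pax7 and Eomes, which mark rare stem cells, and their levels were too low to compare. Of the 13 tested, 1 fell, none rose, and the median change was -0.18 on the log2(FPKM + 1) scale. The gene that fell was Tspan8, a tetraspanin found on a subset of spermatogonia, at 1.82 ± 0.453 FPKM in valine testes and 4.72 ± 1.31 FPKM in control testes (SD, n = 4 each; limma adjusted p = 0.0176, and 0.0724 with the replicate number as a block). Pou5f1, the pluripotency factor, had 3.90 ± 0.877 FPKM in valine testes and 2.404 ± 0.809 FPKM in control testes (limma adjusted p = 0.124), and Ddit4, an inhibitor of mTORC1 signalling, 17.0 ± 2.07 FPKM in valine testes and 21.8 ± 2.36 FPKM in control testes (limma adjusted p = 0.0842). Pou5f1 and Ddit4 were chosen after their values were seen.

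Of 8 other genes of differentiating spermatogonia, 1 rose and none fell, with a median of 0.02 that turned to -0.08 with equal totals. Dmrtb1, a transcription factor at the turn from mitosis to meiosis, rose to 784.6 ± 21.6 FPKM in valine testes, against 623.2 ± 36.6 FPKM in control testes (log2 change 0.33, limma adjusted p = 0.00774). This call was lost with quantile normalisation (limma adjusted p = 0.121). Dmrtb1 was far above Stra8, the most abundant of the 4 differentiating genes (mean 14.6 FPKM in valine testes and 16.2 FPKM in control testes). Which cells made the Dmrtb1 RNA was not tested. Of 7 genes of meiotic entry Stag3, a cohesin subunit, fell (log2 change -0.34, limma adjusted p = 0.00592). Meiosin, which acts with STRA8, had 6.17 ± 1.03 FPKM in valine testes and 7.85 ± 0.753 FPKM in control testes and did not pass (limma adjusted p = 0.146); it was chosen after its value was seen.

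Among ligands and receptors of the spermatogonial niche, 4 of 13 tested fell and none rose (median -0.36). The chemokine gene Cxcl12 was at 1.51 ± 0.284 FPKM in valine testes and 6.63 ± 0.726 FPKM in control testes (SD, n = 4 each; log2 change -1.605, limma adjusted p = 0.00116). The Wnt ligand Wnt6, the growth factor Igf1 and the fibroblast growth factor receptor Fgfr2 fell by less (-0.58, -0.50 and -0.69), and each lost its call under at least 8 of the alternatives tried, most of them single left-out samples. The ligands of the receptors described above did not pass. Gdnf, the ligand of GFRA1, had 1.28 ± 0.248 FPKM in valine testes and 1.08 ± 0.150 FPKM in control testes (limma adjusted p = 0.601). Kitl, the ligand of KIT, had 6.02 ± 0.453 FPKM in valine testes and 7.07 ± 1.43 FPKM in control testes (limma adjusted p = 0.427). Both ligands were chosen after their values were seen.

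Retinoic acid genes were uneven. Of 15 tested 4 fell and none rose, with a median of -0.03. The retinaldehyde dehydrogenase Aldh1a1 was at 78.4 ± 15.4 FPKM in valine testes and 193.6 ± 44.7 FPKM in control testes (log2 change -1.28, limma adjusted p = 0.00826), and the reductase Dhrs3, which turns retinaldehyde back into retinol, was at 3.09 ± 0.639 FPKM in valine testes and 6.79 ± 0.951 FPKM in control testes (limma adjusted p = 0.00927). Cyp26b1, which breaks retinoic acid down, was at 8.37 ± 1.46 FPKM in valine testes and 17.9 ± 2.46 FPKM in control testes (limma adjusted p = 0.00561). Stra6, the retinol carrier receptor, fell by 0.44 on the log2(FPKM + 1) scale (limma adjusted p = 0.0432), a call lost under 11 alternatives. Of 6 ID and E proteins, the relatives and binding partners of ID4, Id3 fell by 0.72 on that scale (limma adjusted p = 0.0425) and lost its call under 12 alternatives, and the median was -0.17.

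**Figure D5:**
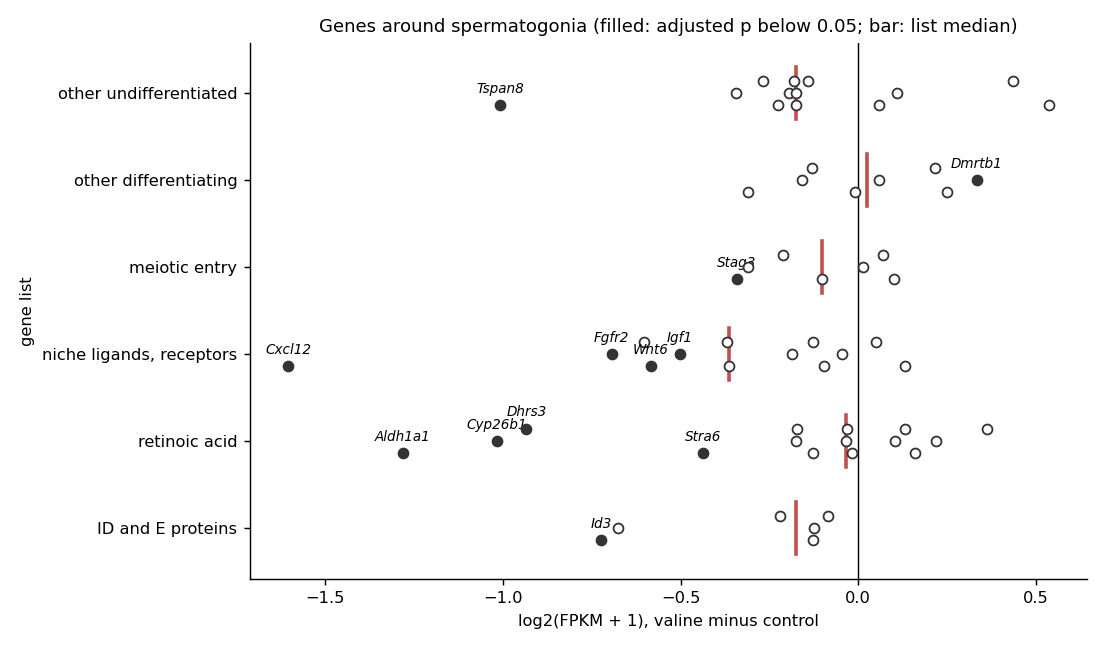
Change of each tested gene on the log2(FPKM + 1) scale, valine minus control (x axis), in 6 lists of genes around spermatogonia (rows), filled and named where the adjusted p was below 0.05, with the list median as a red bar. Apart from Dmrtb1 all called genes lie below 0, with Cxcl12 at -1.605, and the medians lie between -0.36 and 0.02.

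The genes whose pattern over the 8 samples was most like that of Zbtb16 (Pearson's r of log2(FPKM + 1), a description over samples that fall into the 2 groups) were Gaa (r = 0.994), Creb3l2 (r = 0.993) and Col4a5 (r = 0.991). Those most like Kit were Celf1 (r = 0.993), Nos1 (r = 0.990) and Lamb1 (r = 0.988). Creb3l2 was at a mean of 1.071 FPKM in valine testes and 2.83 FPKM in control testes, and Lamb1 at 1.47 FPKM in valine testes and 4.34 FPKM in control testes. Nos1, at 1.37 FPKM in valine testes and 1.71 FPKM in control testes, did not pass the test (limma adjusted p = 0.305). Celf1 changed by -0.38, Gaa by -0.55 and Col4a5 by -0.72 on the log2(FPKM + 1) scale. Col4a5 and Lamb1 code for basement membrane proteins, a collagen and a laminin. Kit and Zbtb16 were like each other (r = 0.947), and Gfra1 ran against both (r = -0.841 with Kit and -0.868 with Zbtb16). All of these values rest on the difference between the groups as well as on the spread within them.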

How the data were processed

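Per the labels' protocols, testis RNA was extracted with Trizol and libraries were prepared with the Illumina TruSeq kit. The authors deposited FPKM values for 55414 genes in 8 samples, and 0 per-sample columns were left unused. Reads were aligned with HISAT2 to GRCm39, per the submitters' processing notes; the sources used here do not give the aligner version, quantifier, annotation or strand setting. Symbols came from GENCODE vM21 for 52081 genes. Exon lengths (the union of a gene's exons) were from the same release. For each gene the FPKM times this length times a library divisor (6.64 to 7.67 in units of 1e6) gave whole numbers (within 0.1 in 98.7% of values under 1000 counts, where 20% would by chance); the divisor was not the total of these counts, and the sources do not say what it stands for.

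Values were analysed as log2(FPKM + 1), which understates the change of low genes, with limma 3.58.1 in R 4.3.3 (treatment as the only term, mean-variance trend, two-sided, Benjamini-Hochberg over 22077 genes whose mean reached 1 FPKM, threshold 0.05). The fit was tested on simulated data. Single genes were also compared by exact permutation tests with Python 3.11.15. The 10 genes and all lists were chosen with earlier results of these data known. All 10 genes could be named, of each list up to 4 called genes by size or, with none called, the 2 of smallest p, and the 3 genes most alike to each; others are said to have been chosen later. Alternatives were another pseudocount, filter, scaling or moderation, sample weights, the replicate number as a block, each sample left out and, added after the data were seen, limma-voom on the recovered counts.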

Additional observations from a re-analysis of the deposited data

Results flagged for a closer look

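Etv5 in valine replicate 3 stood far from the other valine samples: at 14.7 FPKM, against 11.4 to 11.6 FPKM in the other valine samples, its gap was 0.918 of the range of the group, above Dixon's 95% critical value for 4 samples. It rests on 459 counts, against 317 to 344 in the other valine libraries. Chance flags about 1 in 20 such groups, and 1 of the 20 groups examined here (10 genes in 2 groups) was flagged.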

How the results depend on the processing

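Kit stayed called under all 21 alternatives (log2 change -1.16 to -0.82, limma adjusted p from 0.00247 to 0.0305) and Zbtb16 under the 20 that tested it (-1.30 to -0.76, adjusted p from 0.00381 to 0.0394). With a filter at a mean of 5 FPKM, which removes Zbtb16, Gfra1 and Sall4, 1 gene was lower and the undifferentiated median was 0.079. That median was -0.12 with equal totals, which moved the median of all genes by -0.10, and 0.045 after removal of the length trend. No other gene of the 10 was called under any alternative, the changes of Id4 with equal totals (-0.033; 0.05 relative to the all-gene median) and of Sohlh1 without control replicate 3 (-0.035; up to 0.26 with other samples left out) turned sign, and the differentiating median moved by less than the spread between samples. Over all tested genes, the lower calls were 2028 with equal totals, 1559 with voom on the recovered counts and 489 with the replicate block; the higher calls were 568 without a filter, 363 with equal totals, 398 with quantile normalisation, 503 without the mean-variance trend and 581 with the block. Leaving out single samples, controls included, gave 454 to 793 lower and 379 to 794 higher calls. Over all tested genes, samples with the same replicate number correlated by -0.04 to 0.11 in their deviations. Those with different numbers correlated by -0.17 to 0.15. This cannot decide whether the numbers pair samples, and the labels do not say. With the block the SE was larger for Gfra1, Etv5 and Sall4 and smaller for the rest of the 10. It fell most for Sohlh1, from 0.215 to 0.111. Kit and Zbtb16 stayed called with the block (limma adjusted p = 0.0250 and 0.0389). With voom Kit changed by -1.16 and Zbtb16 by -1.30. Depth limits Sall4 most, at 29 to 86 counts a library.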
